A study of Mus musculus with 8 samples.

Results

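The 10 genes described here encode the mouse liver enzymes that oxidize ethanol and the aldehydes that follow from it. They were chosen by name: the alcohol dehydrogenase genes *Adh1*, *Adh4* and *Adh5*, the aldehyde dehydrogenase genes *Aldh2*, *Aldh1a1*, *Aldh1a7*, *Aldh1b1* and *Aldh3a2*, the cytochrome P450 gene *Cyp2e1*, and *Cat*, the gene of catalase. All 10 were among the 19267 genes of the count table, and all 10 passed the filter on low counts that left 13993 genes for testing. Liver RNA was sequenced in 8 libraries from male C57BL/6 mice, 2 libraries in each of 4 groups. The EtOH groups were fed for 21 days on the liquid diet of Lieber and DeCarli, with alcohol at 5% (w/v), and the Control groups on the same diet with isocaloric maltose dextrin in its place, pair-fed, and livers were taken at 9 weeks of age. WT mice carried the Cre transgene alone, whereas *Elf4-/-* mice carried floxed *Elf4* alleles together with a Cre driven by the villin promoter, which deletes the ETS transcription factor gene *Elf4* in the intestinal epithelium and not in the liver. The labels did not say whether the 2 libraries of a group came from separate animals, so that p-values measure the spread between these libraries, which may be technical.

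Ethanol is oxidized in hepatocytes to acetaldehyde, mainly by cytosolic alcohol dehydrogenase, which passes the electrons to NAD+. CYP2E1, a P450 of the endoplasmic reticulum known to be raised by ethanol, makes the same product using NADPH and oxygen, and catalase can do so in peroxisomes at the expense of hydrogen peroxide. Acetaldehyde is then oxidized to acetate, chiefly by ALDH2 in mitochondria, while the cytosolic and membrane-bound aldehyde dehydrogenases also handle retinaldehyde, products of lipid peroxidation and fatty aldehydes. CYP2E1 and several of these enzymes are known to be more abundant in the pericentral than in the periportal part of the liver lobule.

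*Adh1*, *Adh4* and *Adh5* lie in 1 cluster on the plus strand of chromosome 3 (GENCODE M21 annotation of GRCm38). *Adh1* spans 138260991 to 138290698, *Adh4* 138415466 to 138430892, and *Adh5* 138443093 to 138455499. *Aldh1a1*, on the plus strand of chromosome 19 from 20492715 to 20643465, and *Aldh1a7*, on its minus strand from 20692953 to 20727562, are separated by 49487 bases. Their principal transcripts were 88.8% identical over 2036 aligned columns, with a longest identical stretch of 100 bases, and no stretch of 150 bases of any of the 10 principal transcripts occurred in a transcript of another gene. The exons of *Adh1* and *Aldh2* overlap those of *Gm16559* and *Gm42879* on the opposite strand, and whether the counting used strand was not stated, so that reads of these pairs may not have been told apart. The bases that precede 2 transcript pairs are shown. With alcohol in WT the neighbours *Adh1* and *Adh4* moved in opposite directions. The near copies *Aldh1a1* and *Aldh1a7* had changes of the same direction and unlike size. RefSeq promoters (GRCm38.p6) matched 9 of the 10 genes, and each stretch shown ends at the base before the annotated exon at or nearest to a RefSeq start. The stretches of *Adh1* and *Aldh1a1* lie inside the gene spans given above, which begin with the exons of other annotated transcripts. In the *Adh4* sequence the capitals mark AGGTCA, the hexamer bound by many nuclear receptors, and the *Adh1* sequence held none of the motifs searched. In the *Aldh1a1* and *Aldh1a7* sequences the capitals mark the longest stretch the 2 share, 65 bases.
Adh1, chr3:138277335-138277493, plus strand: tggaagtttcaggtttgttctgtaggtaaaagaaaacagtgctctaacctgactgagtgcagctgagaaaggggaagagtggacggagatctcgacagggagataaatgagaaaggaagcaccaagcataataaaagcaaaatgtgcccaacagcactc
Adh4, chr3:138415247-138415465, plus strand: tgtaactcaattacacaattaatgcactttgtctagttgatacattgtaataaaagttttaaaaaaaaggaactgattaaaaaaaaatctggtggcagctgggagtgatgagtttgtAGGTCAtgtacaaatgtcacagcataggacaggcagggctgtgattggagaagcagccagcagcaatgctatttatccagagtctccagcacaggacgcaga
Aldh1a1, chr19:20601718-20601960, plus strand: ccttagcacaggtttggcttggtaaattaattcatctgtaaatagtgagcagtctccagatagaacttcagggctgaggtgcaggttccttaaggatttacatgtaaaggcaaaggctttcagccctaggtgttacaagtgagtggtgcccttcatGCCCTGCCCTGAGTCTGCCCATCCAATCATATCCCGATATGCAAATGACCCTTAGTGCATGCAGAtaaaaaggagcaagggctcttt
Aldh1a7, chr19:20727563-20727806, minus strand: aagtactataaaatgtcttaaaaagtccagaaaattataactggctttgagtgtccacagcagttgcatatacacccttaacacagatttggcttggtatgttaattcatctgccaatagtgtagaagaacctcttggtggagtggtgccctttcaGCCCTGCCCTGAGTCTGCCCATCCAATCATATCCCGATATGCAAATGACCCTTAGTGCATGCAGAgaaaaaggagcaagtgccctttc

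The shared stretch ran from 94 to 30 bases before the RefSeq start of both genes, and in the best local alignment of the 250-base windows 104 of 110 columns were identical. RefSeq lists 2 starts for *Aldh1a1*, and the one shown is the nearer to *Aldh1a7*. For each start the 250 bases before it were searched on both strands for 5 motifs. TATAAA occurred in 12.3% of 32536 RefSeq promoter windows, AGGTCA in 14%, the antioxidant response element core TGACNNNGC in 10.2%, the HNF1 hexamer GTTAAT in 6.47% and the C/EBP site TTGCNNAA in 9.57%. AGGTCA was found at 2 places before *Adh4*, the first of them shown above, and at 1 place before *Cat*. TATAAA lay 31 to 26 bases before the start of *Cyp2e1*, 244 to 239 before that of *Aldh1a7* and 207 to 202 before 1 of the 2 starts of *Adh5*. GTTAAT lay 150 to 145 bases before the start of *Aldh1a7*, and TTGCNNAA 13 to 6 bases before the other start of *Aldh1a1*, on the opposite strand. TGACNNNGC was found before none of the 9 matched genes. Binding at these letters was not measured.

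Library totals ran from 6171051 to 9157362 counts, and 16999 to 18297 genes were detected per library. Of 10 hepatocyte markers 9 were measured, and their summed level was at least 34739 CPM (counts relative to the library total, scaled by TMM factors) in each of the 8 libraries. Genes of the mitochondrial genome took 28.6% ± 7.26 of the WT Control counts and 11.7% ± 1.25 of the WT EtOH counts, 18.6% ± 0.176 of the *Elf4-/-* Control counts and 20.2% ± 2.69 of the *Elf4-/-* EtOH counts (SD, n = 2 each). Library totals and TMM scaling gave different levels. With alcohol in WT the median log2 fold change over all genes was 0.44 under library totals alone, in place of 0.01 under TMM. It was 0.13 under totals without mitochondrial genome genes. The WT libraries held 6 and 11 counts of *Elf4* under Control and 27 and 36 under EtOH, the *Elf4-/-* libraries 12 and 6, and 14 and 34. Because the deletion is intestinal, these liver counts do not check the labels. The 2 *Elf4-/-* EtOH libraries stood further apart than those of any other group, with an SD of their log2 difference over 9398 genes of 0.681 against 0.354 to 0.504. For each of the 10 genes the *Elf4-/-* diet value and the average are therefore given without each of them as well.

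With alcohol, mRNA of the main cytosolic and P450 ethanol-oxidizing enzymes and of 2 aldehyde dehydrogenases was higher in WT livers. *Adh1*, *Aldh1a1*, *Aldh3a2* and *Cyp2e1* rose in WT, by 3.08-, 5.38-, 3.06- and 2.10-fold, and *Adh4* and *Aldh1b1* fell, to 0.478 and 0.248 of the Control level (adjusted p under the threshold of 0.05, edgeR quasi-likelihood test, Benjamini-Hochberg over 13993 genes). In *Elf4-/-* livers *Aldh1a1* and *Aldh1a7* rose, by 5.79- and 2.92-fold. Averaged over both genotypes, *Adh1*, *Aldh2*, *Aldh1a1*, *Aldh1a7*, *Aldh3a2* and *Cyp2e1* rose and *Aldh1b1* fell, while *Adh4*, *Adh5* and *Cat* did not pass the test. Together the 10 genes took 0.602% ± 0.107 of all WT counts under Control and 1.49% ± 0.0146 under EtOH, against 0.761% ± 0.0416 and 1.26% ± 0.0120 in *Elf4-/-* (SD, n = 2 each). These totals include mitochondrial genome counts, whose share was 28.6% and 11.7% in WT and 18.6% and 20.2% in *Elf4-/-*, so these shares depend on it too. In bulk RNA a change in the share of hepatocytes or of a zone of the lobule and a change in the RNA per cell cannot be told apart.

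Read against all genes, 4 of the 10 were called higher in WT where 10.8% of all genes tested were, and 2 were called lower where 10.8% were. In *Elf4-/-* 2 of 10 were called higher, with 1.71% of all genes, and 0 lower, with 1.18%. At an unadjusted p under 0.05 there were 5 (21.2% of all genes). DESeq2 called 5 higher and 0 lower, where it called 811 of all 13993 genes, 452 of them higher. Averaged over genotypes 6 were called higher and 1 lower, with 14.1% and 13.9% of all genes. The median log2 fold change of the 10 was 0.63 in WT, 0.64 in *Elf4-/-* and 0.77 on average, and that of all genes 0.01 in each of these comparisons. Both diet comparisons of 1 genotype use 2 libraries a group, and 7 of the 10 lay wholly above Control in WT (34.1% of all genes), 3 wholly below (32.7%), and in *Elf4-/-* 7 lay above (25.8%) and 0 below (26.4%). Over the fits that left out 1 library, the median of the 10 ran from 0.531 to 0.826 in WT and from 0.646 to 0.876 on average. In *Elf4-/-* this median ran from 0.528 to 0.752. The number of members called changed with the library left out, and so did the number called over all genes. Scaled by library totals alone, 7 members were called higher and 1 lower in WT, where 3416 of 4050 called genes were higher in place of 1517 of 3025, and the median of the 10 was 1.06.

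**Figure D1:**
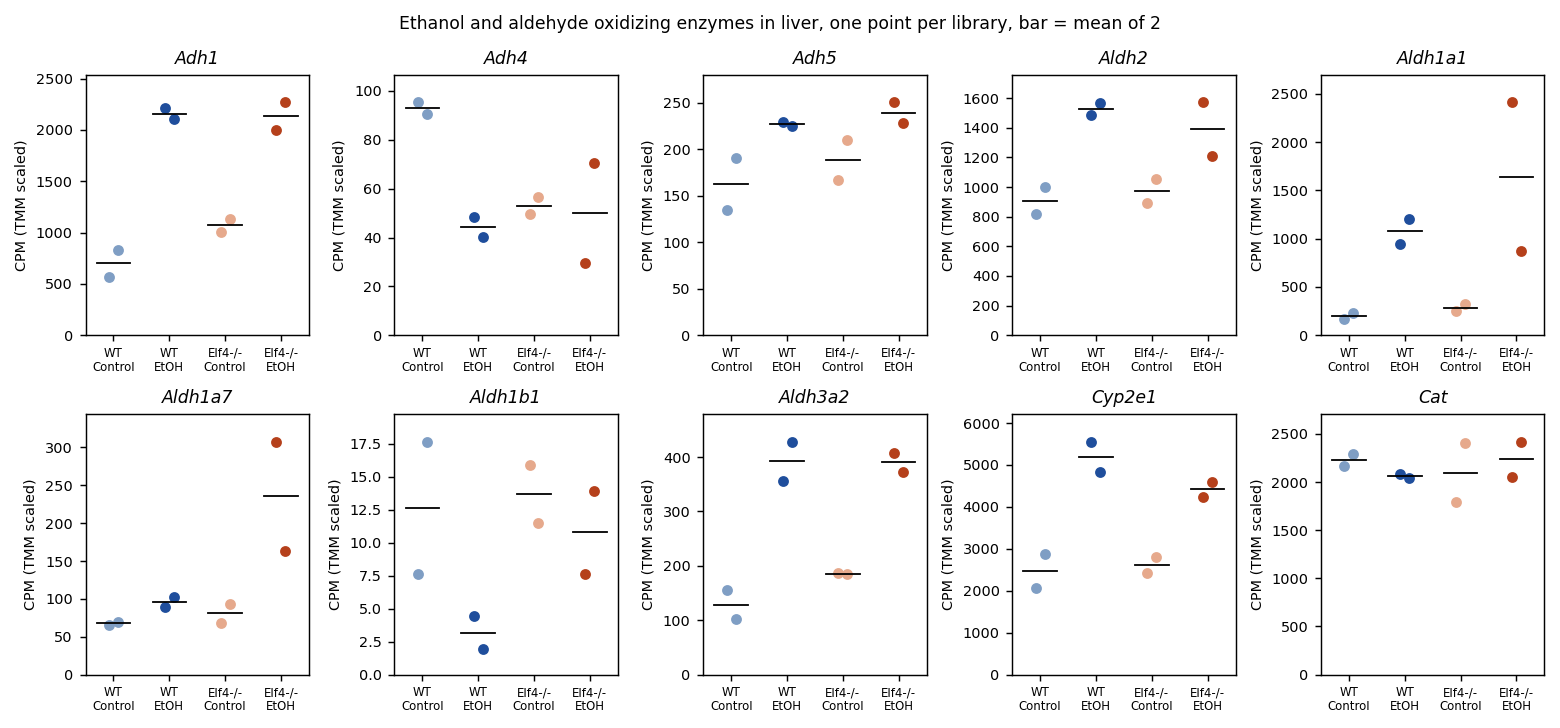
Level of the 10 genes in CPM scaled by TMM factors (y axes, linear and starting at 0) in the 4 groups, with 1 point per library and a bar at the mean of 2. *Adh1*, *Aldh1a1*, *Aldh3a2* and *Cyp2e1* lie higher in all 4 EtOH libraries than in all 4 Control libraries, and *Cat* stays between 1790.2 and 2419 CPM. Within *Elf4-/-* EtOH the libraries differ most for *Aldh1a1* (2.77-fold) and *Adh4* (2.39-fold). *Aldh1b1* is spread there too, by 1.82-fold, and more so in WT Control (2.31-fold) and WT EtOH (2.29-fold).

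*Adh1*, the class I enzyme that carries most hepatic ethanol oxidation, was measured at 570.0 and 830.2 CPM in WT Control, 2212 and 2103 CPM in WT EtOH, 1008 and 1132 CPM in *Elf4-/-* Control, and 1997 and 2268 CPM in *Elf4-/-* EtOH. All 4 EtOH libraries lay above all 4 Control libraries, and the WT Control libraries lay below the *Elf4-/-* Control libraries. Its log2 fold change with alcohol was 1.62 ± 0.28 (SE) in WT (adjusted p = 0.00477) and 0.99 ± 0.27 in *Elf4-/-* (adjusted p = 0.0782), and 1.31 ± 0.19 on average (adjusted p = 0.00156). The value in *Elf4-/-* did not pass the edgeR test and passed that of DESeq2 (adjusted p = 0.00296). Without *Elf4-/-* EtOH replicate 1 the *Elf4-/-* value was 1.08 and the average 1.35, and without replicate 2 they were 0.88 and 1.25. *Adh1* was called in WT and on average without any 1 of the 8 libraries.

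*Adh4*, a class II enzyme that also oxidizes retinol and hydroxylated fatty acids, moved the other way in WT. Its level was 95.3 and 90.4 CPM in WT Control and 48.6 and 40.3 CPM in WT EtOH, with no overlap. In *Elf4-/-* Control it was 49.7 and 56.4 CPM, near the WT EtOH values, and in *Elf4-/-* EtOH 29.4 and 70.4 CPM, 1 library below and 1 above both Control libraries. The log2 fold change in WT was −1.06 ± 0.33 (adjusted p = 0.0459), and it was lost without any 1 of 6 libraries (WT Control 1 or 2, WT EtOH 1 or 2, *Elf4-/-* Control 1 or 2), where it ran from −1.21 to −0.94 with adjusted p from 0.0737 to 0.233. It was lost too under library totals alone (−0.63, adjusted p = 0.185). In *Elf4-/-* the log2 fold change was −0.08 ± 0.33, which became −0.87 (adjusted p = 0.0332) without *Elf4-/-* EtOH replicate 2 and 0.41 without *Elf4-/-* EtOH replicate 1. On average it was −0.57 ± 0.23 (adjusted p = 0.0921), and −0.33 (adjusted p = 0.117) with *Elf4-/-* EtOH replicate 1 left out and −0.97 (adjusted p = 0.000605) with replicate 2 left out.

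*Adh5*, the class III enzyme better known as glutathione-dependent formaldehyde dehydrogenase, differed less. Its 4 Control libraries ran from 135 to 209.8 CPM and its 4 EtOH libraries from 225 to 251 CPM, which did not overlap. The log2 fold change was 0.48 ± 0.23 in WT (adjusted p = 0.167), 0.35 ± 0.23 in *Elf4-/-* (adjusted p = 0.42) and 0.41 ± 0.17 on average (adjusted p = 0.0866), none past the threshold. Under library totals alone it passed in WT, at 0.91 (adjusted p = 0.0183), and on average, at 0.61 (adjusted p = 0.0206). The average also passed under totals without mitochondrial genome genes (0.48, adjusted p = 0.0351) and without WT Control replicate 2 (0.55, adjusted p = 0.0464). Leaving out *Elf4-/-* EtOH replicate 1 gave 0.28 in *Elf4-/-* and 0.38 on average, and leaving out replicate 2 gave 0.39 and 0.43.

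*Cyp2e1*, the ethanol-inducible P450, had the highest mean level of the 10 in each group. Its level was 2072 and 2869 CPM in WT Control, 5554 and 4841 CPM in WT EtOH, 2430 and 2798 CPM in *Elf4-/-* Control, and 4242 and 4595 CPM in *Elf4-/-* EtOH. The EtOH libraries of both genotypes lay above all Control libraries, and those of *Elf4-/-* lay below those of WT. *Cyp2e1* rose by 1.07 ± 0.29 on the log2 scale in WT (adjusted p = 0.0288) and by 0.92 ± 0.21 on average (adjusted p = 0.0102). In *Elf4-/-* the value was 0.76 ± 0.29 (adjusted p = 0.175), which DESeq2 called (adjusted p = 0.0343). The WT call was lost without WT Control replicate 1 (0.85, adjusted p = 0.122), without WT EtOH replicate 1 (0.97, adjusted p = 0.138) or replicate 2 (1.16, adjusted p = 0.0976), and at 1.07 with adjusted p = 0.0529 and 0.053 without *Elf4-/-* Control replicate 1 and 2. The averaged call was lost without *Elf4-/-* Control replicate 1 (0.86, adjusted p = 0.0503). The *Elf4-/-* value was 0.81 with *Elf4-/-* EtOH replicate 1 left out and 0.68 with replicate 2 left out, and the average 0.94 and 0.87.

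*Cat*, the peroxisomal catalase, was high in every group, and its diet difference was the nearest to 0 of the 10 in WT and on average. Its level was 2169.7 and 2287 CPM in WT Control, 2087 and 2042 CPM in WT EtOH, 1790.2 and 2409 CPM in *Elf4-/-* Control, and 2058 and 2419 CPM in *Elf4-/-* EtOH. The WT EtOH libraries lay narrowly below those of WT Control, and the *Elf4-/-* groups overlapped. The log2 fold change was −0.11 ± 0.27 in WT (95% interval −0.71 to 0.49), 0.09 ± 0.27 in *Elf4-/-* (−0.50 to 0.69) and −0.01 ± 0.19 on average (−0.43 to 0.41). Its sign turned with the scaling, to 0.32 in WT under library totals alone. It turned too with the *Elf4-/-* EtOH libraries, at 0.20 in *Elf4-/-* and 0.047 on average without replicate 1, and −0.047 and −0.082 without replicate 2.

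*Aldh2*, the mitochondrial enzyme with the highest affinity for acetaldehyde, was measured at 815 and 999.9 CPM in WT Control, 1487 and 1564 CPM in WT EtOH, 890.4 and 1051 CPM in *Elf4-/-* Control, and 1570.4 and 1210.2 CPM in *Elf4-/-* EtOH. All 4 EtOH libraries lay above all 4 Control libraries. The log2 fold change was 0.75 ± 0.26 in WT (adjusted p = 0.0651), 0.52 ± 0.26 in *Elf4-/-* (adjusted p = 0.281) and 0.63 ± 0.18 on average (adjusted p = 0.0285), and only the average passed. The averaged call was lost without any 1 of 6 libraries (WT Control 1, WT EtOH 1 or 2, *Elf4-/-* Control 1 or 2, *Elf4-/-* EtOH 1), at 0.53 to 0.70 with adjusted p from 0.0506 to 0.114. In *Elf4-/-* the value was 0.32 with *Elf4-/-* EtOH replicate 1 left out and 0.68 with replicate 2 left out, which gave averages of 0.53 and 0.71. In WT the value passed with DESeq2 (adjusted p = 0.0172) and under library totals alone (1.18, adjusted p = 0.00772). It also passed under totals without mitochondrial genome genes (0.88, adjusted p = 0.0252) and with a minimum mean count of 50 (0.80, adjusted p = 0.0406).

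*Aldh1b1*, the other mitochondrial acetaldehyde dehydrogenase of the set, was the lowest of the 10. It had 41 and 96 counts in WT Control (7.63 and 17.6 CPM), 35 and 19 counts in WT EtOH (4.42 and 1.93 CPM), 155 and 77 counts in *Elf4-/-* Control (15.9 and 11.5 CPM), and 48 and 105 counts in *Elf4-/-* EtOH (7.64 and 13.9 CPM). The WT groups did not overlap, and the *Elf4-/-* groups did. *Aldh1b1* fell by 2.01 ± 0.52 on the log2 scale in WT (adjusted p = 0.0226). That call was lost without WT Control replicate 2 (−1.29, adjusted p = 0.163) and without WT EtOH replicate 2 (−1.52, adjusted p = 0.159), and the value was −2.70 without WT EtOH replicate 1. In *Elf4-/-* it was −0.34 ± 0.46 (adjusted p = 0.718), and 0.017 with *Elf4-/-* EtOH replicate 1 left out and −0.87 with replicate 2 left out, which gave averages of −1.001 and −1.45. On average it fell by 1.18 ± 0.35 (adjusted p = 0.0302), a call lost without any 1 of WT Control 2, WT EtOH 2, *Elf4-/-* Control 1 or 2, or *Elf4-/-* EtOH 1, at −1.28 to −0.81 with adjusted p from 0.0504 to 0.124.

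*Aldh1a1*, the cytosolic retinaldehyde dehydrogenase that also oxidizes acetaldehyde, showed the largest rise of the 10 in both genotypes. Its level was 172 and 229 CPM in WT Control, 949.8 and 1207 CPM in WT EtOH, 248 and 319 CPM in *Elf4-/-* Control, and 2411 and 869.8 CPM in *Elf4-/-* EtOH. Every EtOH library was at least 869.8 CPM and no Control library was above 319 CPM, while the 2 *Elf4-/-* EtOH libraries differed by 2.77-fold from each other. *Aldh1a1* rose by 2.43 ± 0.44 on the log2 scale in WT (adjusted p = 0.00582), 2.53 ± 0.44 in *Elf4-/-* (adjusted p = 0.0231) and 2.48 ± 0.31 on average (adjusted p = 0.000895). The *Elf4-/-* call was lost without *Elf4-/-* Control replicate 1 (2.36, adjusted p = 0.18) or replicate 2 (2.73, adjusted p = 0.189), and when the 4 *Elf4-/-* libraries were fitted alone (2.54, adjusted p = 0.108). Its size rested on the EtOH libraries: it was 1.62 (adjusted p = 0.0194) with *Elf4-/-* EtOH replicate 1 left out and 3.07 (adjusted p = 0.000105) with replicate 2 left out, and the average was then 2.02 and 2.75.

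*Aldh1a7*, the near copy of *Aldh1a1* with the same 65 bases before its start, was read at a lower level. Its rise was called in *Elf4-/-* and not in WT. It was measured at 65.7 and 69.8 CPM in WT Control, 88.7 and 103 CPM in WT EtOH, 68.6 and 92.8 CPM in *Elf4-/-* Control, and 308 and 163 CPM in *Elf4-/-* EtOH. No EtOH library lay below the Control libraries of its genotype, and both *Elf4-/-* EtOH libraries lay above all others. The log2 fold change was 0.50 ± 0.30 in WT (adjusted p = 0.249), 1.54 ± 0.30 in *Elf4-/-* (adjusted p = 0.0299) and 1.02 ± 0.21 on average (adjusted p = 0.00652). Under library totals alone the WT value passed, at 0.93 (adjusted p = 0.031, edgeR). The *Elf4-/-* call was lost without *Elf4-/-* EtOH replicate 1 (1.02, adjusted p = 0.0579), *Elf4-/-* Control replicate 1 (1.34, adjusted p = 0.22) or replicate 2 (1.78, adjusted p = 0.189), and without WT EtOH replicate 1 or 2 (1.53, adjusted p = 0.0602 and 0.0599). It was also lost when the 4 *Elf4-/-* libraries were fitted alone (1.55, adjusted p = 0.125). Without *Elf4-/-* EtOH replicate 2 it was 1.91 (adjusted p = 0.000474), and the average was 0.76 without replicate 1 and 1.20 without replicate 2.

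*Aldh3a2*, the membrane-bound fatty aldehyde dehydrogenase, was measured at 155 and 102 CPM in WT Control, 357 and 428 CPM in WT EtOH, 186 and 185 CPM in *Elf4-/-* Control, and 407 and 373 CPM in *Elf4-/-* EtOH. All EtOH libraries lay at least 357 CPM and all Control libraries at most 186 CPM. *Aldh3a2* rose by 1.61 ± 0.25 on the log2 scale in WT (adjusted p = 0.00359) and 1.34 ± 0.18 on average (adjusted p = 0.000995), without any 1 of the 8 libraries as well. In *Elf4-/-* its value of 1.07 ± 0.25 missed the threshold narrowly (adjusted p = 0.0502), and it was called by DESeq2 (adjusted p = 0.00255), without a filter on low counts (adjusted p = 0.0388) and without WT Control replicate 1, WT Control replicate 2 or *Elf4-/-* EtOH replicate 2 (adjusted p = 0.0455, 0.0452 and 0.0241). It was 1.01 with *Elf4-/-* EtOH replicate 1 left out and 1.11 with replicate 2 left out, and the average 1.31 and 1.36.

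**Figure D2:**
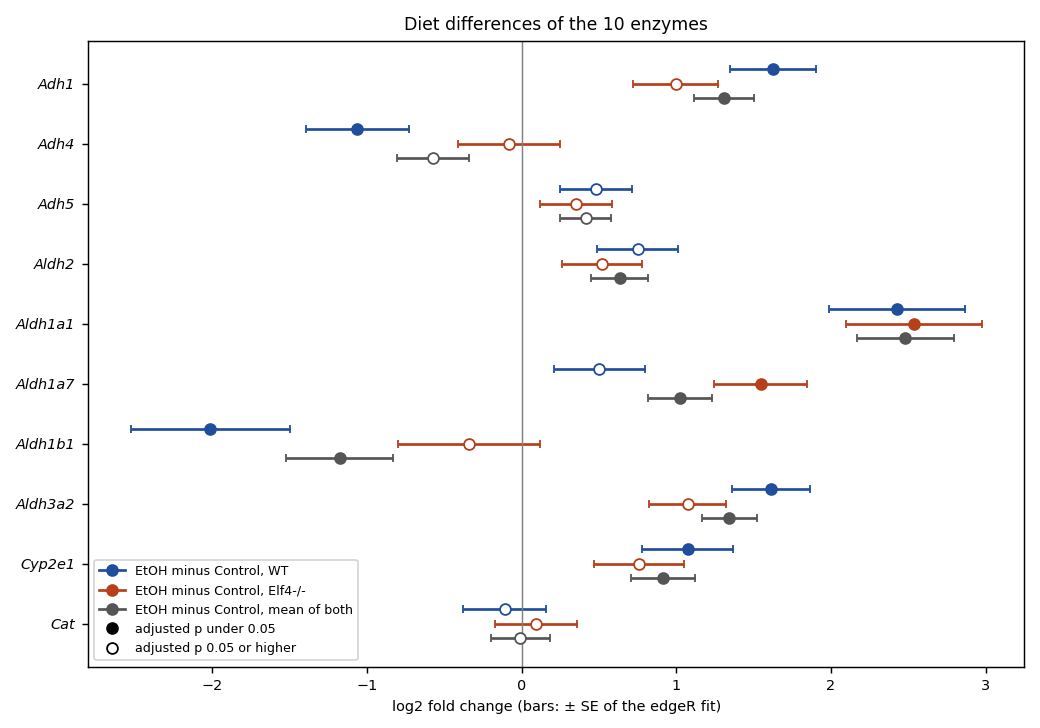
Log2 fold change with alcohol (x axis, EtOH minus Control) of each gene in WT, in *Elf4-/-* and averaged over both, with bars of ± 1 SE from the edgeR fit and filled points where the adjusted p was under 0.05. *Aldh1a1* lies farthest to the right, at 2.43 and 2.53, *Aldh1b1* farthest to the left in WT, at −2.01, and *Cat* lies beside 0.

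Ratios of the counts of 2 genes within a library do not depend on how libraries are scaled, and they are given as a description. Per *Aldh2* count, WT livers had 0.211 and 0.229 *Aldh1a1* counts under Control and 0.639 and 0.771 under EtOH, and *Elf4-/-* livers 0.278 and 0.303, and 1.54 and 0.719. In 1 library, *Elf4-/-* EtOH replicate 1, the cytosolic enzyme thus had more counts than the mitochondrial one. Counts of *Aldh1a7* per *Aldh1a1* count were 0.382 and 0.305, 0.0934 and 0.0854, 0.277 and 0.291, and 0.128 and 0.188 in the same order of groups. The near copies thus moved apart in every EtOH library. *Cyp2e1* counts per *Cat* count ran from 0.955 to 1.36 over the 4 Control libraries and from 1.90 to 2.66 over the 4 EtOH libraries, and *Adh1* counts per *Adh4* count from 5.98 to 20.3 and from 32.2 to 67.8. Not every ratio separated the diets. *Cyp2e1* per *Adh1* ran from 2.41 to 3.64 under Control and from 2.03 to 2.51 under EtOH. *Aldh1b1* per *Aldh2* ran from 0.0094 to 0.0178 and from 0.0012 to 0.0115. *Adh1* per *Adh5* and *Adh1* per *Aldh2* did not overlap between the diets.

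**Figure D3:**
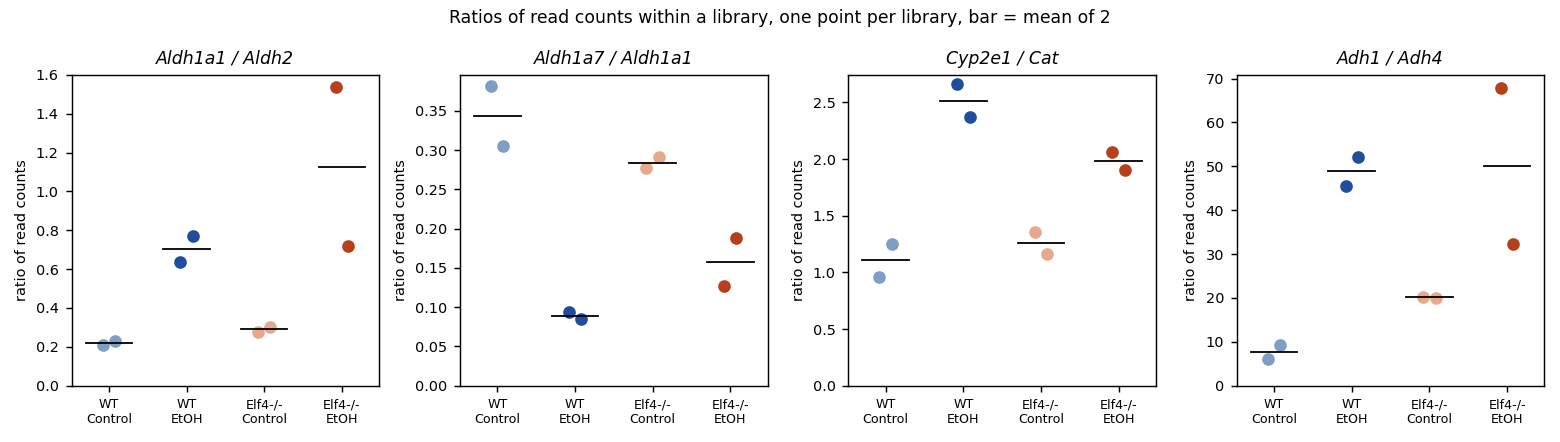
Ratios of read counts between 2 of the genes within each library (y axes, linear and starting at 0) in the 4 groups, with 1 point per library and a bar at the mean of 2. *Cyp2e1* per *Cat* and *Adh1* per *Adh4* are higher in all 4 EtOH libraries than in all 4 Control libraries, and *Aldh1a7* per *Aldh1a1* is lower.

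Markers of the zones of the lobule and of other liver cells moved with the diet. All 12 pericentral markers were above the floor of 3 counts somewhere, with a summed level of 3601 to 3925 CPM in WT Control, 6894 to 6955 CPM in WT EtOH, 3787 to 4691 CPM in *Elf4-/-* Control and 7176 to 12531 CPM in *Elf4-/-* EtOH. The 12 periportal markers summed to 12788 to 15090 CPM, 6063 to 8314, 12927 to 16916 and 9963 to 11555 in the same order. With alcohol in WT, 4 pericentral markers were called higher and 1 lower, and 0 periportal markers higher and 6 lower. In *Elf4-/-* 4 pericentral markers were called higher, and no other marker of either zone was called. Of all genes tested, 10.8% were called higher and 10.8% lower in WT, and 1.71% and 1.18% in *Elf4-/-*. The 8 Kupffer cell markers, all detected, summed to 199 to 259.6 CPM, 624 to 695, 186 to 192 and 253 to 264, and 8 of 8 were called higher in WT and 1 in *Elf4-/-*. The 8 endothelial markers summed to 81.0 to 145, 334 to 404, 194 to 217 and 199.6 to 332 CPM, and 7 were called higher in WT and 0 in *Elf4-/-*. The 8 stellate cell markers summed to 36.6 to 91.0, 253 to 329, 90.8 to 148 and 214 to 355 CPM, and 4 were called higher in WT and 0 in *Elf4-/-*. Hepatocyte markers summed to 57777 to 79339 CPM, 34739 to 42533, 67761 to 75071 and 44514 to 56578. Of the 9 tested, 1 was called lower and 0 higher in WT, and 0 were called in *Elf4-/-*. The 6 lymphocyte markers summed to at most 12.1 CPM in any library, the 3 of 6 neutrophil markers in the table to at most 13.2 CPM, and the 2 of 6 pancreatic acinar markers in the table, of which Cela2a was at or under 3 counts throughout, to at most 9.53 CPM. The part of zone, cell composition and mitochondrial share in the differences of the 10 enzymes was not tested.

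Between the genotypes, none of the 10 genes was called under either diet. Under EtOH, *Aldh1a7* and *Aldh1b1* had the largest differences: *Aldh1a7* stood at 235 ± 102 CPM in *Elf4-/-* against 95.9 ± 10.1 in WT, and *Aldh1b1* at 10.8 ± 4.43 against 3.17 ± 1.76 (SD, n = 2). The libraries of the genotypes did not overlap for 3 of the 10 (41.3% of all genes), *Cyp2e1* being the third, with the lower level in *Elf4-/-*. Their log2 fold changes, *Elf4-/-* minus WT, were 1.29 ± 0.30 (adjusted p = 0.161) and 1.79 ± 0.51 (adjusted p = 0.26). Called were 0 of 10 with edgeR, where 0.143% of all genes were, and the unadjusted p was under 0.05 for 2 (10.5% of all genes). DESeq2 called the same 2 (adjusted p = 0.00613 and 0.0426), where it called 180 of all 13993 genes. For *Aldh1a7* the edgeR value was 0.77 (adjusted p = 0.18) with *Elf4-/-* EtOH replicate 1 left out and 1.67 with replicate 2 left out, where it was called (adjusted p = 0.00457). For *Aldh1b1* the value ran from 1.28, without *Elf4-/-* EtOH replicate 2, to 2.47, without WT EtOH replicate 1, and it was not called in any of the fits that left out 1 library. The other 8 lay between −0.23 for *Cyp2e1* and 0.61 for *Aldh1a1*, which became −0.30 with *Elf4-/-* EtOH replicate 1 left out and 1.15 with replicate 2 left out. The 95% interval of the difference was −0.62 to 0.58 for *Adh1*, −0.71 to 0.44 for *Aldh2*, −0.88 to 0.41 for *Cyp2e1* and −0.32 to 1.53 for *Aldh1a1*.

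Under the Control diet, 0 of 10 were called with edgeR (0.0143% of all genes), and 0 with DESeq2, while the unadjusted p was under 0.05 for 2 (7.31%). These were *Adh1*, at 0.61 ± 0.27 (adjusted p = 0.679), and *Adh4*, at −0.81 ± 0.33 (adjusted p = 0.649). *Adh1* was thus higher and *Adh4* lower in both *Elf4-/-* Control libraries than in both WT Control libraries, by sizes that did not pass, and 4 of the 10 did not overlap (38.5% of all genes). The interaction, the diet difference in *Elf4-/-* minus that in WT, was called for 0 of 10 with edgeR (0% of all genes) and 0 with DESeq2, and 2 had an unadjusted p under 0.05 (10.1% of all genes): *Aldh1a7* at 1.04 ± 0.42 (adjusted p = 0.442) and *Aldh1b1* at 1.67 ± 0.69 (adjusted p = 0.454). Over the fits that left out 1 library the former ran from 0.52 to 1.42 and the latter from 0.94 to 2.34. A member called in 1 genotype and not in the other, as *Adh1*, *Adh4*, *Aldh1a7*, *Aldh1b1*, *Aldh3a2* and *Cyp2e1* were, is therefore not shown to respond differently. The diet and genotype comparisons share libraries and are not independent of each other.

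**Figure D4:**
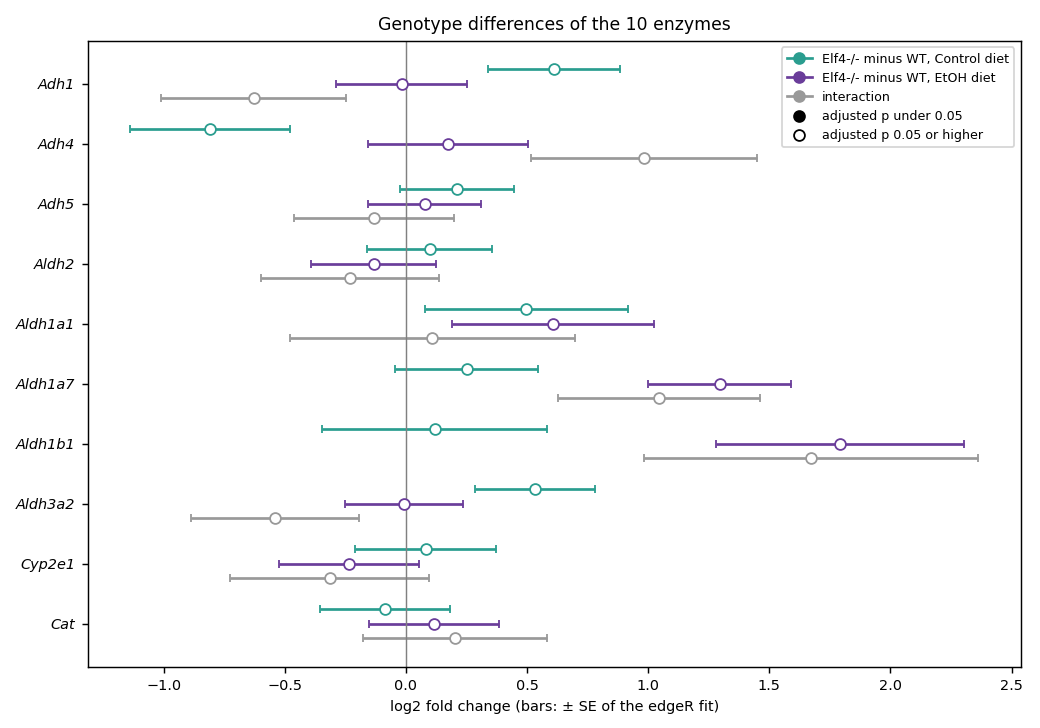
Log2 fold change between genotypes (x axis, *Elf4-/-* minus WT) of each gene under the Control and the EtOH diet, and the interaction (diet difference in *Elf4-/-* minus that in WT), with bars of ± 1 SE from the edgeR fit. All 30 points are open, as none had an adjusted p under 0.05, and *Aldh1b1* and *Aldh1a7* lie farthest to the right under EtOH, at 1.79 and 1.29.

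To set the genes beside each other, CPM was divided by the length of the principal transcript in kb, as a description. In WT Control the order was *Cyp2e1* at 1348 CPM per kb, *Cat* at 853, *Adh1* at 469, *Aldh2* at 235, *Adh5* at 101, *Aldh1a1* at 85.0, *Adh4* at 70.6, *Aldh3a2* at 41.5, *Aldh1a7* at 32.8 and *Aldh1b1* at 5.50. *Adh5* and *Aldh1a1*, and *Aldh3a2* and *Aldh1a7*, overlapped between libraries in that order. In WT EtOH *Cyp2e1* stood at 2835 CPM per kb, *Adh1* at 1446, ahead of *Cat* at 790.1, *Aldh1a1* at 457 and *Aldh2* at 394 with overlapping libraries, *Adh5* at 142, *Aldh3a2* at 127, *Aldh1a7* at 46.4, *Adh4* at 33.8 and *Aldh1b1* at 1.38. With alcohol in WT, *Adh1* thus stood above *Cat* in place of below it, and *Adh4* 9th in place of 7th. *Elf4-/-* livers gave *Cyp2e1* 1426 CPM per kb, *Cat* 804, *Adh1* 717 and *Aldh1a1* 120.1 under Control, where the libraries of *Cat* and *Adh1* overlapped. Under EtOH they gave *Cyp2e1* 2411, *Adh1* 1429, *Cat* 857 and *Aldh1a1* 696, where the libraries of *Aldh1a1* overlapped those of *Cat* and those of *Aldh2*. Divided by the length of all annotated exons instead, *Adh5* stood at the 8th in place of the 5th position in WT Control and *Adh4* at the 5th in place of the 7th. In WT EtOH *Aldh2* then stood at 298 CPM per kb, above *Aldh1a1* at 218 with no overlap, and *Adh1* and *Cat* overlapped in *Elf4-/-* EtOH. *Cyp2e1* stayed first and *Aldh1b1* last in each group.

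Across the 8 libraries the members closest to each other in log2 CPM centred on each gene's mean were *Adh5* and *Aldh2*, at a root mean square difference of 0.16, and *Aldh2* and *Cyp2e1*, at 0.21. Among 9397 other genes with mean counts of 50 or more, those nearest to *Aldh2* were *Chid1* (0.07) and *Selenow* (0.08), and those nearest to *Cyp2e1* were *Gm8566* (0.08) and *Mad2l1bp* (0.09). Nearest to *Adh1* were *Rwdd1* (0.11) and *Suclg1* (0.12), to *Aldh3a2* *Sypl* (0.12) and *4930506C21Rik* (0.16), and to *Adh4* *Abca2* and *Afm* (0.16 each). *Aldh1a7* was nearest to *Lect2* (0.17), a gene of the pericentral list, and to *4931406C07Rik* (0.20). *Aldh1b1* was nearest to *Gls2* (0.27) and *Cyp2f2* (0.40), both of the periportal list. *Aldh1a1* was nearest to *Plk3* (0.27) and *Fmo2* (0.28). All these profiles share the same 8 libraries and the diet groups, and the distances are a description.

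Other genes of alcohol and aldehyde handling were read from 6 lists. Of all genes tested, 10.8% were called higher and 10.8% lower in WT, 1.71% and 1.18% in *Elf4-/-*, and 14.1% and 13.9% on average, with a median of 0.01 in each. These shares belong to the fit of all 8 libraries. When 1 library was left out, the number called over all genes changed, as the list counts did. Of 19 further alcohol and aldehyde dehydrogenase genes, 13 were tested, with a median log2 fold change of −0.21 in WT, and 2 were called higher and 2 lower. *Aldh3b1*, named after its values were seen because its mean count was under 50, rose in WT by 1.69 ± 0.46 (adjusted p = 0.0287), as did *Aldh5a1*, the succinate semialdehyde dehydrogenase, by 0.75 ± 0.23 (adjusted p = 0.0419), while *Adhfe1* fell by 0.94 ± 0.23 (adjusted p = 0.0179) and *Aldh8a1* fell by 0.93 ± 0.21 (adjusted p = 0.0144). In *Elf4-/-* 0 of the 13 were called by edgeR, 2 had an unadjusted p under 0.05, and DESeq2 called 0. The WT count of 4 ran from 0, without WT Control replicate 1 or either WT EtOH replicate, to 5 over the fits that left out 1 library. On average 3 were called higher and 2 lower, among them *Adh7*, the gastric alcohol dehydrogenase, at −0.98 ± 0.30 (adjusted p = 0.0344). This count of 5 was 1 to 3 without any 1 library other than WT Control replicate 2 and *Elf4-/-* EtOH replicate 2, where it was 4.

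Carbonyl reductases and aldehyde oxidases handle aldehydes by other chemistry. In WT 6 of 9 tested were called higher and 1 lower (10.8% of all genes each way), with a median of 1.36, and this count of 7 fell to 4 without WT Control replicate 1 or either WT EtOH replicate. *Cbr1*, a carbonyl reductase, rose by 2.20 ± 0.27 (adjusted p = 0.00182), from 61.4 and 65.6 CPM to 242 and 339 CPM. *Cbr3*, a related reductase, was counted 0 and 2 times under Control and 95 and 256 times under EtOH in WT, at least 34.3-fold higher with the floor of 3 counts per library. *Aox3*, an aldehyde oxidase, fell by 3.23 ± 0.48 (adjusted p = 0.00309), from 993.8 and 1066 CPM to 112 and 108 CPM. In *Elf4-/-* *Akr1a1*, an NADPH-dependent aldehyde reductase, was the 1 gene called, at 1.02 ± 0.21 (adjusted p = 0.0359), where 1.71% of all genes were called higher. That count was 5 without *Elf4-/-* EtOH replicate 2, 1 without either WT Control replicate and 0 without any other library.

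Among genes of acetate use, *Acss3*, an acyl-CoA synthetase of mitochondria, rose by 1.80 ± 0.40 in WT (adjusted p = 0.0129) and 2.03 ± 0.38 in *Elf4-/-* (adjusted p = 0.0277), the only 1 of 5 called in each (10.8% and 1.71% of all genes called higher). The median of the 5 was 0.29 in WT and 0.12 in *Elf4-/-*. *Acss3* was not called in WT without WT Control replicate 2 or WT EtOH replicate 2, nor in *Elf4-/-* without either Control replicate or *Elf4-/-* EtOH replicate 1. NADH shuttles return the electrons that ethanol oxidation gives to NAD+, and their list of 12 genes also held lactate dehydrogenase genes. *Ldha*, a lactate dehydrogenase subunit and not a shuttle gene, rose in WT by 2.17 ± 0.33 (adjusted p = 0.00314). It was the 1 gene called, and the median of the 12 was 0.25. The count was 2 without WT Control replicate 2 or either *Elf4-/-* EtOH replicate. In *Elf4-/-* 0 of the 12 were called by edgeR, 3 had an unadjusted p under 0.05, and DESeq2 called 1. Averaged over genotypes *Mdh2*, the mitochondrial malate dehydrogenase, was called too, at 1.07 ± 0.27 (adjusted p = 0.0173).

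A further list held genes of P450 electron transfer, of heme synthesis and breakdown, and reference P450 genes. Of its 9 genes, 6 were called higher and 1 lower in WT (10.8% of all genes each way), with a median of 1.74. *Cyp2a5* rose by 3.67 ± 0.42 (adjusted p = 0.0015) and *Cyp3a11* by 2.79 ± 0.33 (adjusted p = 0.00167), both P450 genes known to respond to foreign compounds, and so did *Alas1*, the first enzyme of heme synthesis, by 2.61 ± 0.70 (adjusted p = 0.0275). In *Elf4-/-* *Cyp2a5* rose by 2.69 ± 0.41 (adjusted p = 0.0161), *Cyp3a11* by 2.51 ± 0.33 (adjusted p = 0.00973) and *Cyb5b*, a cytochrome b5, by 0.92 ± 0.20 (adjusted p = 0.0414), and no other of the 9 was called (1.71% of all genes called higher). These values can be set beside the 1.07 of *Cyp2e1* in WT. The WT count of 7 ran from 2, without either WT EtOH replicate, to 7, and the *Elf4-/-* count of 3 from 0, without either *Elf4-/-* Control replicate, to 6.

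Around catalase, 4 of 12 genes of hydrogen peroxide and peroxisomes were called higher in WT and 0 lower (10.8% of all genes each way), with a median of 0.41. *Prdx1*, a peroxiredoxin, rose by 2.16 ± 0.29 (adjusted p = 0.00248), *Pex11a*, a gene of peroxisome division, by 1.92 ± 0.39 (adjusted p = 0.00929) and *Gpx1*, a glutathione peroxidase, by 1.92 ± 0.39 (adjusted p = 0.00961). In *Elf4-/-* *Prdx1* rose by 1.69 ± 0.29 (adjusted p = 0.0223), the 1 gene of the list called (1.71% of all genes called higher). Averaged over genotypes 5 rose and 1 fell (14.1% and 13.9%). The WT count of 4 ran from 2, without WT Control replicate 2 or WT EtOH replicate 2, to 6, and the *Elf4-/-* count of 1 from 0, without either *Elf4-/-* Control replicate, to 3. In the genotype comparisons and the interaction, edgeR called 0 genes of these 6 lists, with 0 to 3 per list at an unadjusted p under 0.05. DESeq2 called 0 to 2 per list, and edgeR 0 to 3 when 1 library was left out.

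**Figure D5:**
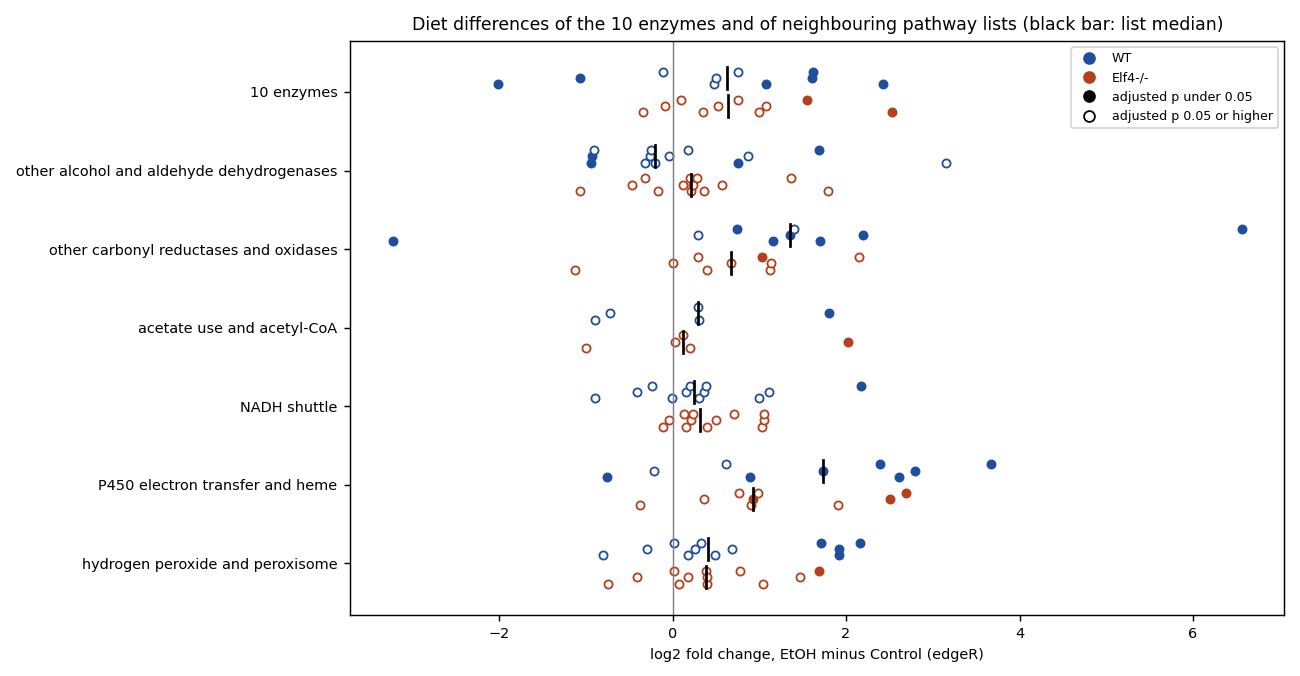
Log2 fold change with alcohol (x axis, EtOH minus Control, edgeR) of the 10 enzymes and of the tested genes of 6 neighbouring lists in WT and in *Elf4-/-*, with 1 point per gene, filled where the adjusted p was under 0.05, and a black bar at the median. The medians of the 10 enzymes are 0.63 and 0.64, and those of the P450 electron transfer and heme list 1.74 and 0.92.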

How the data were processed

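The authors extracted liver RNA with Trizol, used HISAT2 to map reads to mm10, SAMtools for sorting, HTSeq for gene counts and DESeq2 for testing. Versions, the annotation and the strand setting were not given in the sources used here. The deposited table holds raw whole-number counts per gene symbol, 1 column per library. Genes were filtered with filterByExpr by group, scaled by TMM, and all 8 libraries of 4 groups were fitted in 1 model with edgeR 4.0.16 (R 4.3.3), quasi-likelihood test, Benjamini-Hochberg over 13993 genes, threshold 0.05. The 6 contrasts share libraries. The SE is the log2 fold change divided by the square root of F. Level per kb used transcript lengths of GENCODE M21 (GRCm38, the assembly of mm10), and promoters came from RefSeq.

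The 10 genes and the lists were chosen with earlier results of these data known. Named were the 10 genes, up to 3 genes per pathway list and diet contrast with the largest change (adjusted p under 0.05, mean count 50 or more), and the 2 nearest genes of each called member. A gene that this rule names is not reported here. Alternatives were DESeq2 1.42.0 (Wald test), its size factors, library totals with and without mitochondrial genome genes, no filter, a minimum mean count of 50, only the libraries compared, a replicate block, and leaving out each library. The scripts were tested on simulated data. Bounds against 3 counts cover counting error only, since PCR copies were not separated.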

Additional observations from a re-analysis of the deposited data

How the results depend on the processing

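The depth of 6171051 to 9157362 counts per library limits *Aldh1b1* (19 to 155 counts) most, and with 2 libraries a group every call rests on few samples. Fits that left out 1 library kept all other groups, so that the lone sample of a group was assumed to vary like the others. Over the fits without 1 library, 409 values kept their direction and side of the threshold, 32 lost and 9 gained a call and 30 changed sign, and over the other alternatives these numbers were 423, 8, 15 and 14. The causes were not tested.

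The number of the 10 enzymes called with alcohol in *Elf4-/-* was 5 with DESeq2, 1 with a replicate block and 0 when only the libraries compared were fitted, in place of 2, and DESeq2 called 2 between genotypes under EtOH in place of 0. Leaving out 1 library gave 3 to 7 in WT, 0 to 4 in *Elf4-/-*, 4 to 8 averaged over genotypes and 0 to 1 between genotypes under EtOH. Same-numbered libraries did not deviate together (correlations of −0.134 to 0.114 over 9398 genes). With 2 libraries a group, these correlations cannot show whether same-numbered samples were paired. With the replicate block *Adh4* was lost in WT (−1.06, adjusted p = 0.0556) and *Aldh1a7* in *Elf4-/-* (1.54, adjusted p = 0.0545), and no other call of the 10 changed. Counts of all genes called with alcohol in *Elf4-/-* were 404 in the main analysis, 811 with DESeq2, 252 with the block and 40 with only the libraries compared; between genotypes under EtOH they were 20, 180, 10 and 0, and under Control 2, 79, 2 and 22. For the interaction they were 0 in the main analysis and 111 with DESeq2.

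Signs that changed belonged to values that had not passed the test. Under library totals alone *Cat* was 0.32 with alcohol in WT, 0.20 on average, −0.11 and 0.13 between genotypes under EtOH and Control, and −0.24 in the interaction, *Adh4* and *Adh5* were −0.037 and −0.16 between genotypes under EtOH, and *Aldh1a1* was −0.37 in the interaction. With mitochondrial genome genes left out of the totals *Cat* was 0.011 in WT and 0.057 on average, *Adh5* −0.0077 between genotypes under EtOH, and *Aldh1a1* −0.026 in the interaction. *Cat* was 0.0025 on average without a filter and 0.021 with a mean of at least 50 counts.

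Leaving out 1 library moved these log2 fold changes through 0. With alcohol in *Elf4-/-*, *Adh4* ran from −0.87 to 0.41, *Aldh1b1* from −0.87 to 0.017 and *Cat* from −0.11 to 0.32, and on average *Cat* ran from −0.11 to 0.11. Between genotypes under EtOH, *Adh1* ran from −0.12 to 0.078, *Adh4* from −0.60 to 0.67, *Aldh2* from −0.33 to 0.035, *Aldh1a1* from −0.30 to 1.15, *Aldh3a2* from −0.14 to 0.13 and *Cat* from −0.012 to 0.24. Under Control, *Adh5* ran from −0.011 to 0.48, *Aldh2* from −0.039 to 0.26, *Aldh1b1* from −0.36 to 0.85, *Cyp2e1* from −0.13 to 0.34 and *Cat* from −0.31 to 0.12. In the interaction, *Adh5* ran from −0.40 to 0.094 and *Aldh1a1* from −0.81 to 0.65.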
